A study of Sus scrofa with 6 samples.

Results

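The genes described here are the heat shock chaperones of the cytosol and mitochondria, the cofactors that work with them and the transcription factors that control many of them, measured in IPEC-J2 cells given chenodeoxycholic acid (CDCA). Members were chosen by gene name in the deposited table: names that begin with HSPA, HSPB, HSPD, HSPE, HSPH, HSP90A, DNAJA, DNAJB, DNAJC or CCT2 to CCT8, together with TCP1, BAG1 to BAG6, HSF1 and HSF2. HSPA5, DNAJB9, DNAJB11 and DNAJC3, which act in the endoplasmic reticulum (ER), were left out. The choice found 75 of 31908 gene IDs, held in 205 of 63041 listed transcripts, whose values were summed for each gene ID. A name is not a place or a function. DNAJB14, DNAJC1 and DNAJC10 encode ER proteins, and HSPB11 encodes a protein of intraflagellar transport, and all 4 stayed among the members.

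IPEC-J2 cells are pig small intestinal epithelial cells grown as a line without transformation, and CDCA is a primary bile acid made in the liver. RNA-seq covered 6 libraries: 3 of PBS controls (CON) and 3 of cells that received 50 μM CDCA (CDCA), after 24 h of either. All libraries came from this single cell line. The paper calls the replicates biological, but the labels do not say whether they were separate cultures. The p-values below thus measure only the spread between these libraries, which may be technical. The comparison asks which genes differ in RNA level between treated and untreated cells.

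Heat shock proteins bind unfolded or partly folded proteins and help them fold, keep them soluble or pass them on for degradation. HSP70 proteins work in cycles of ATP use that J-domain proteins (DNAJ) start and that nucleotide exchange factors of the HSP110 and BAG families end, while small heat shock proteins hold unfolded proteins without ATP. The ring-shaped chaperonin TRiC, built of TCP1 and the CCT subunits, folds actin and tubulin, and HSF1 switches on many of these genes when unfolded proteins gather.

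Values are TPM, transcript levels scaled to the library total and corrected for transcript length. The fold changes are differences of log2(TPM + 1), which understate the ratio for genes of a few TPM, and were tested by limma over 8708 genes whose mean reached 1 TPM. The FDR is the Benjamini-Hochberg adjusted p-value over all of these genes. A gene rose or fell here where its FDR was under 0.05, and it was called where the log2 fold change was also over 1 in size. The paper reports the reads of each library, but the values are not counts, so the number of reads behind each gene is unknown. The listed TPM summed to between 351770 and 366073 in a library, where all transcripts would sum to 1000000, and a gene listed near 0 may be missing some of its transcripts.

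The 13 mRNAs encoded by mitochondrial DNA held a share of listed TPM that was 13.8% to 15.0% in the CON libraries and 2.90% to 3.45% in the CDCA libraries. Scaling each library to the same total without these mRNAs lowered the median log2 fold change of all tested genes by 0.13 on the log2 scale. Members whose test changes its result under that scaling are named beside their values. Counts of the further gene lists are given without that scaling. Of 6 epithelial markers 5 were listed, and their summed level was 624 to 647 TPM in CON and 1182 to 1322 TPM in CDCA, most of the difference being CLDN4. CDH1, a defining epithelial marker, was under 1 TPM. The 6 markers of leukocytes, endothelium, fibroblasts and muscle summed to 2.53 to 3.31 TPM in CON and 1.77 to 1.99 TPM in CDCA, the highest single value being 2.14 TPM for PECAM1. The part of these markers in the results below was not tested. In RNA from whole wells, fewer cells of a kind and less RNA per cell cannot be told apart.

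Several heat-inducible chaperone genes rose in CDCA, among them HSPH1, DNAJB1, BAG3 and HSPB1. The TPM of the TRiC members as listed summed to 1.01 times that of CON. With totals that leave out the mitochondrially encoded mRNAs, 0 TRiC members rose and 2 fell, at a median of -0.16 on the log2 scale. A gene ID outside the member names, described as TRiC subunit 6A, fell by 0.37 on the log2 scale as listed (limma FDR 0.00096). Of the 75 members 55 were tested, and the other 20 had a mean under 1 TPM, the highest being 0.618 TPM, with 4 listed at 0 in all 6 libraries. Of the 55, 6 were called higher, or 10.9%, against 3.51% of all tested genes, and 0 were called lower, against 3.90%. HSPB6, DNAJB2 and HSPBAP1 reached the filter only through CDCA, with CON means under 1 TPM, so their place among the tested members was not independent of the difference, and among the other 52 tested members 5 were called higher and 21 rose. Without the limit on size, 23 members rose, or 41.8% against 29.3% of all tested genes, and 10 fell, or 18.2% against 23.9%. The median log2 fold change was 0.18 over the tested members and 0.05 over all tested genes. With totals that leave out the mitochondrially encoded mRNAs these medians were 0.07 and -0.08, and 19 members rose, 13 fell and 5 were called higher. The shares of all tested genes given above do not apply to this scaling.

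The groups did not overlap, with CDCA higher, in 27 tested members, where 33.7% of all tested genes did so, and with CDCA lower in 12, where 27.8% did so. Of the 33 members that rose or fell, 7 missed the threshold in at least 1 fit that left out a library: HSPA14, DNAJB2, DNAJB6, DNAJB13, DNAJC24, TCP1 and CCT4. Another 25, of which 18 rose and 7 fell, passed in all 6 fits that left out a library. HSPB6 passed in 5 of them and was not tested in the fit without CDCA library 1, where its mean was under 1 TPM.

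**Figure D1:**
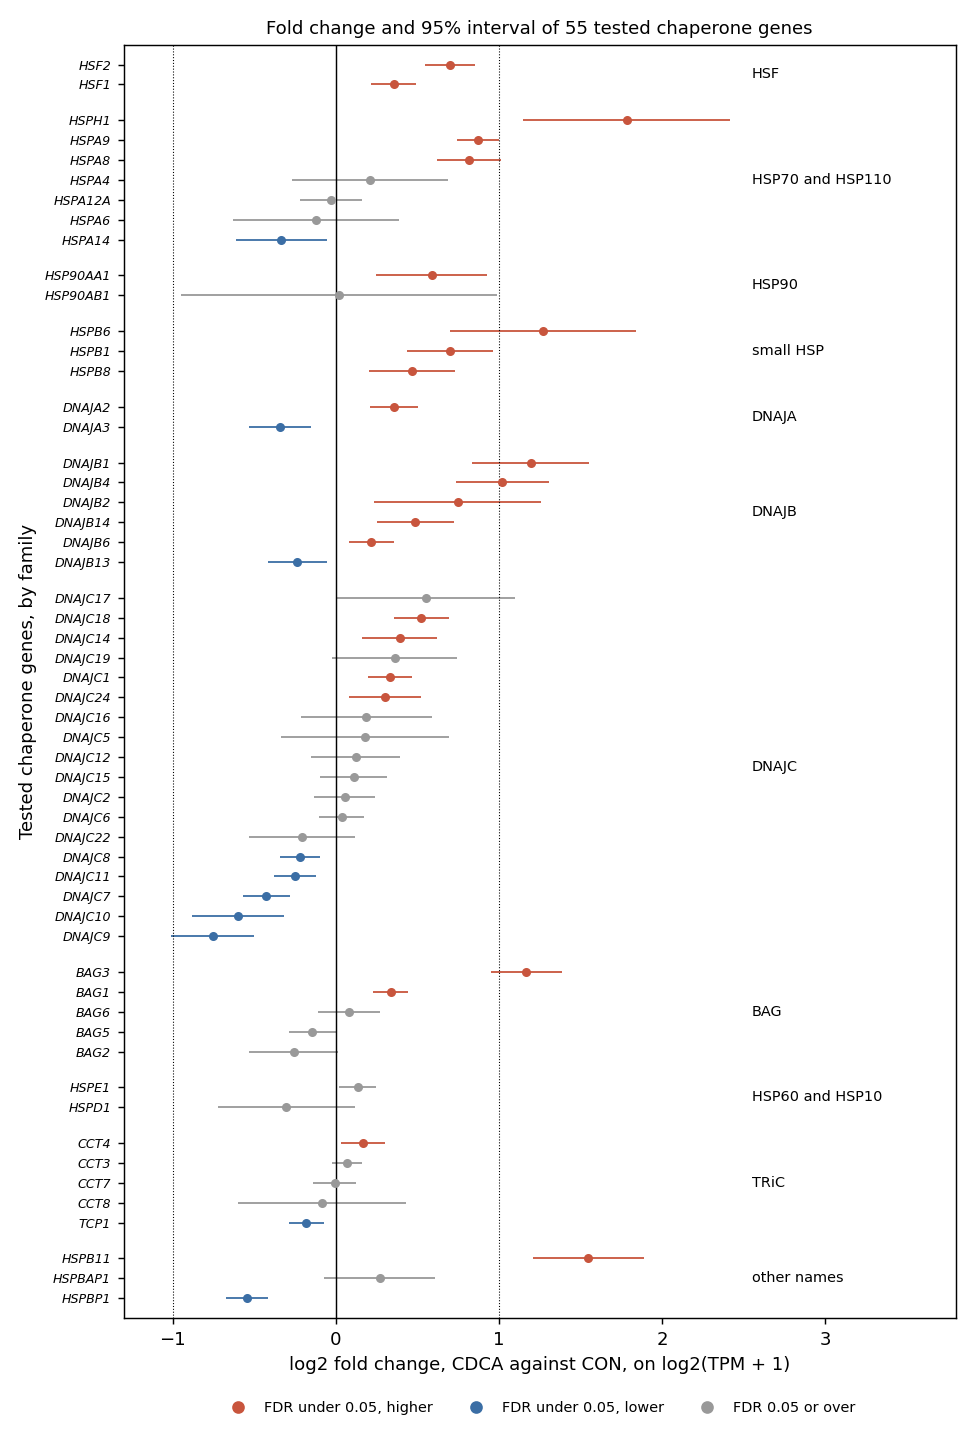
log2 fold change of each tested chaperone gene, CDCA against CON on log2(TPM + 1), with 95% intervals from limma (bars), grouped by family, with 3 libraries per group. Red genes rose and blue genes fell at an FDR under 0.05, grey genes passed in neither direction, and the dotted lines mark a log2 fold change of 1 in size; HSPH1 lies farthest to the right at 1.78 and DNAJC9 farthest to the left at -0.75.

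Both heat shock factors rose. HSF1, the master factor of the heat shock response, measured 28.10, 30.23 and 29.16 TPM in the CON libraries against 38.59, 39.22 and 35.08 TPM under CDCA. Its log2 fold change was 0.36 (SE 0.06, FDR 0.0023), and 0.21 with totals that leave out the mitochondrially encoded mRNAs. HSF2, a related factor that can share a trimer with HSF1, gave 10.22, 10.23 and 9.77 TPM without CDCA and 17.56, 17.77 and 15.67 TPM with it. All 3 CDCA libraries lay above all 3 CON libraries for both genes, and the ratio of means was 1.29 for HSF1 and 1.69 for HSF2. The log2 fold change of HSF2 was 0.70 (SE 0.06, FDR 0.0002).

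In the HSP70 and HSP110 families 7 of 10 members were tested, 3 rose and 1 fell, or 42.9% and 14.3% against 29.3% and 23.9% of all tested genes, and the median log2 fold change was 0.21, or 0.07 with totals that leave out the mitochondrially encoded mRNAs. HSPH1, the HSP110 protein that exchanges nucleotide on HSP70, was the member with the highest log2 fold change. It had levels of 7.83, 8.14 and 6.26 TPM in untreated libraries, compared with 30.98, 38.80 and 17.82 TPM in treated ones, which gave a log2 fold change of 1.78 (SE 0.27, FDR 0.0016) and a ratio of means of 3.94. The CDCA libraries were far apart from each other, and the lowest of them still lay above the highest CON library.

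HSPA8, the constitutive cytosolic HSP70, was the most abundant member of the family. Its levels reached 654.49, 663.58 and 545.62 TPM under CDCA from 372.13, 338.46 and 343.52 TPM in the CON libraries, and the log2 fold change was 0.82 (SE 0.08, FDR 0.0003). HSPA9, the HSP70 of the mitochondrial matrix that pulls in imported proteins, measured 133.09, 127.69 and 116.55 TPM in the CON libraries against 229.29, 233.41 and 229.74 TPM under CDCA. Its CDCA values lay within a few TPM of each other and its log2 fold change was 0.87 (SE 0.05, FDR 3.64e-05), the lowest FDR among the members.

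HSPA6, an HSP70 that is strictly inducible in human cells, gave 48.66, 51.21 and 36.48 TPM without CDCA and 41.89, 54.15 and 31.07 TPM with it. The groups overlapped and the log2 fold change was -0.12 (95% interval -0.63 to 0.39, FDR 0.67). HSPA6 is close in sequence to HSPA1A and HSPA1B, which were not among the member names and were not analysed here, so how reads were shared among these genes is uncertain. HSPA14, which sits on ribosomes with DNAJC2, had 27.4 ± 4.34 TPM in CON and 21.4 ± 1.69 TPM in CDCA (SD, n = 3). Its log2 fold change of -0.33 had an FDR of 0.0494, and the result was lost in 5 of 6 fits that left out a library.

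HSPA4 (log2 fold change 0.21, FDR 0.41) and HSPA12A (-0.03, FDR 0.77) did not pass. The gene ID listed as HSPA4, named for another HSP110 protein, carried a description of a zinc finger protein, so its identity is uncertain. HSPA13, HSPA12B and HSPA1L were under 1 TPM and were not tested.

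**Figure D2:**
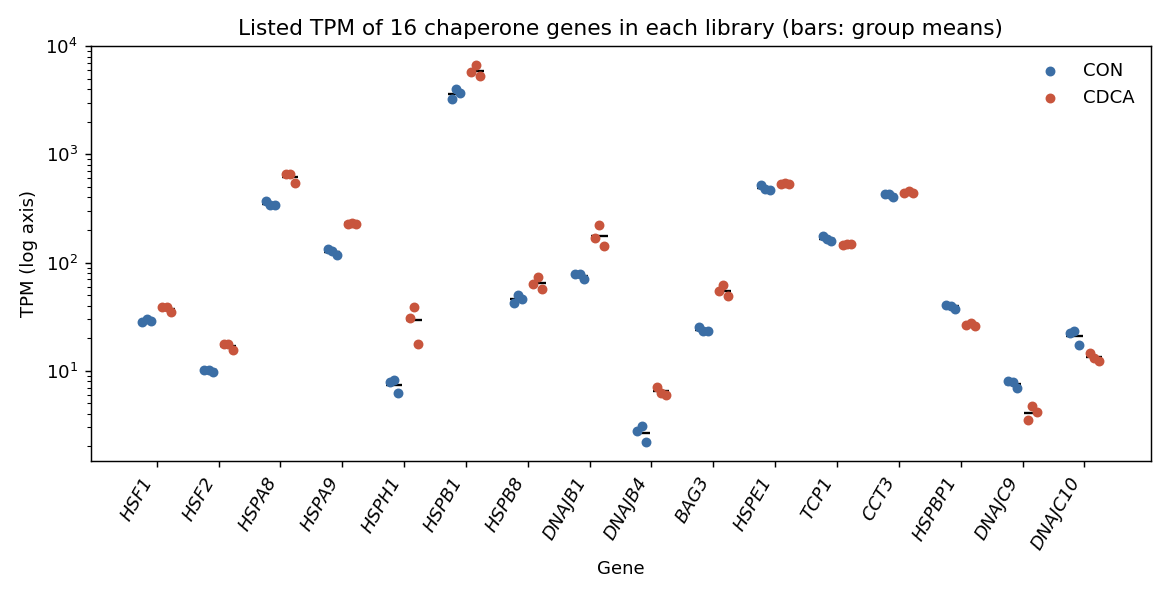
Listed TPM (log axis) of 16 chaperone genes in each CON (blue) and CDCA (red) library, with the group mean as a short black bar. HSPB1 lies highest, between 3224 and 6735 TPM, and the red points of HSPH1, DNAJB1, BAG3 and DNAJB4 stand clear above the blue ones, while those of HSPBP1, DNAJC9 and DNAJC10 stand below.

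Among the listed values of the members, the highest were those of HSPB1 (HSP27), a small heat shock protein that binds unfolded proteins and actin filaments. HSPB1 had levels of 3224.38, 3992.81 and 3723.43 TPM in untreated libraries, compared with 5772.96, 6735.35 and 5291.31 TPM in treated ones. Among all listed genes, the mitochondrially encoded mRNAs included, it ranked 12th by mean level in CON and 4th in CDCA. The share of those mRNAs was lower in CDCA, so the change of rank does not measure HSPB1 alone. The groups did not overlap, and the log2 fold change was 0.70 (SE 0.11, FDR 0.0020), a ratio of means of 1.63. Of the 2 listed HSPB1 transcripts with the highest level, the first held 90.0% of the gene in CON and 90.3% in CDCA, and both were higher in CDCA, with ratios of 1.63 and 1.57.

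HSPB8, which joins BAG3 in clearing aggregated proteins by autophagy, measured 42.16, 50.62 and 45.85 TPM in the CON libraries against 62.77, 74.32 and 56.53 TPM under CDCA. Its log2 fold change was 0.47 (SE 0.11, FDR 0.011). HSPB6 (HSP20), best known from muscle, was near 0 in CON at 0, 0.27 and 0.38 TPM, and was listed at 3.03, 1.47 and 1.47 TPM in CDCA. HSPB6 was called higher with a log2 fold change of 1.27 (SE 0.24, FDR 0.0044), at low levels and from an unknown number of reads. It reached the filter of 1 TPM only through the CDCA libraries. Without CDCA library 1 its mean was under 1 TPM, so it was not tested. HSPB3, HSPB7 and HSPB9 were under 1 TPM.

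HSP90 is the chaperone of kinases and steroid receptors and is usually abundant, yet both cytosolic genes were listed at a few TPM. HSP90AA1, the stress-inducible form, gave 1.69, 1.64 and 2.37 TPM without CDCA and 2.84, 3.86 and 3.36 TPM with it. It rose with a log2 fold change of 0.59 (SE 0.14, FDR 0.012). HSP90AB1, the constitutive form, ranged from 0.13 to 1.65 TPM in CON and from 0.20 to 1.51 TPM in CDCA, and its interval of -0.95 to 0.99 spans both directions, and its log2 fold change was -0.05 with totals that leave out the mitochondrially encoded mRNAs.

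J-domain proteins deliver clients to HSP70 and fall into classes A, B and C by their domains. In class B, 6 of 9 DNAJB members were tested, 5 rose and 1 fell, or 83.3% and 16.7% against 29.3% and 23.9% of all tested genes, and 1 of the 5, DNAJB2, reached the filter only through CDCA. DNAJB1 (HSP40), the main inducible partner of HSP70, had levels of 77.98, 78.47 and 70.34 TPM in untreated libraries, compared with 168.30, 220.79 and 142.63 TPM in treated ones. Every CDCA library was higher than every CON library, and the log2 fold change was 1.20 (SE 0.15, FDR 0.0007). DNAJB4, its close relative in the cytosol, measured 2.76, 3.11 and 2.18 TPM in the CON libraries against 7.11, 6.24 and 5.99 TPM under CDCA. Its log2 fold change of 1.02 (SE 0.12, FDR 0.0005) was just past the limit of 1. It was not called with totals that leave out the mitochondrially encoded mRNAs, where it was 0.90, nor without CON library 3 or CDCA library 1, where its lowest value was 0.92.

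DNAJB2, DNAJB14 and DNAJB6 rose by log2 fold changes of 0.75, 0.49 and 0.22, and the DNAJB2 result, at a mean of 0.767 TPM in CON and 1.90 TPM in CDCA, was lost in 4 of 6 fits that left out a library. The DNAJB14 result rested on the sum of its transcripts, since the highest of them alone was at 0.16 (FDR 0.14). DNAJB6, which keeps aggregation-prone proteins soluble, had 26.1 ± 1.20 TPM in CON and 30.5 ± 1.64 TPM in CDCA (SD, n = 3), with an FDR of 0.019 that did not hold in 4 of 6 fits that left out a library or with totals that leave out the mitochondrially encoded mRNAs. DNAJB13, a protein of sperm flagella and cilia, fell with a log2 fold change of -0.23 (FDR 0.037), lost in 5 of those 6 fits, and was at -0.38 under the same scaling. In class A, DNAJA2 rose by 0.36 on the log2 scale (31.6 ± 1.82 to 40.8 ± 2.11 TPM), or 0.21 without the mitochondrially encoded mRNAs in the totals, and DNAJA3, the mitochondrial form, gave 26.34, 26.48 and 24.83 TPM without CDCA and 21.84, 21.09 and 17.94 TPM with it. DNAJA3 fell with a log2 fold change of -0.34 (SE 0.08, FDR 0.011).

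In class C, whose members share little beyond the J domain, 18 of 23 were tested, 4 rose, 5 fell and 9 did not pass. These shares, 22.2% and 27.8%, lay near the 29.3% and 23.9% of all tested genes. The summed TPM of the class had a ratio of 1.00. The median log2 fold change was 0.12, and -0.03 with totals that leave out the mitochondrially encoded mRNAs. DNAJC9, which carries histones H3 and H4, had levels of 7.97, 7.83 and 6.95 TPM in untreated libraries, compared with 3.50, 4.68 and 4.13 TPM in treated ones. Its log2 fold change of -0.75 (SE 0.11, FDR 0.0013) was the largest fall among the tested members, and the groups did not overlap.

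DNAJC10, an ER protein that reduces disulfide bonds, measured 22.36, 23.14 and 17.26 TPM in the CON libraries against 14.51, 13.22 and 12.44 TPM under CDCA, with a log2 fold change of -0.60 (SE 0.12, FDR 0.0052). DNAJC7, which binds both HSP70 and HSP90, gave 27.99, 29.15 and 28.58 TPM without CDCA and 19.35, 21.75 and 22.10 TPM with it, with a log2 fold change of -0.42 (SE 0.06, FDR 0.0014). Of its 3 listed transcripts the highest was at 0.605 of its CON level in CDCA, the next at 0.733 and the lowest at 1.69. DNAJC11 and DNAJC8 fell by less, with log2 fold changes of -0.25 and -0.22, or -0.40 and -0.37 without the mitochondrially encoded mRNAs in the totals, and the highest transcript of DNAJC8 alone, at -0.21, did not pass. DNAJC18, DNAJC14, DNAJC1 and DNAJC24 rose, with log2 fold changes from 0.53 for DNAJC18 to 0.30 for DNAJC24, and that of DNAJC24 was lost in 4 of 6 fits that left out a library. DNAJC14 and DNAJC24 did not pass with totals that leave out the mitochondrially encoded mRNAs, at 0.27 and 0.17, and DNAJC1 was at 0.19.

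BAG proteins act on HSP70 after ATP use. BAG3, which couples HSP70 and small heat shock proteins to autophagy, had levels of 25.16, 23.24 and 23.21 TPM in untreated libraries, compared with 54.32, 62.29 and 48.68 TPM in treated ones. All CDCA libraries lay above all CON libraries, and the log2 fold change was 1.17 (SE 0.09, FDR 9.16e-05). BAG1, which links HSP70 to the proteasome, measured 26.32, 25.64 and 26.33 TPM in the CON libraries against 34.48, 32.44 and 32.74 TPM under CDCA, a log2 fold change of 0.34 (SE 0.04, FDR 0.0009). The BAG1 result rested on the sum of its transcripts, since the highest of them alone had a log2 fold change of 0.14 and did not pass. With totals that leave out the mitochondrially encoded mRNAs BAG1 was at 0.19.

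BAG2, BAG5 and BAG6 did not pass, with log2 fold changes of -0.26, -0.14 and 0.08. With totals that leave out the mitochondrially encoded mRNAs, BAG2 and BAG5 fell, by 0.34 and 0.29 on the log2 scale, and BAG6 was at -0.06. BAG4 was under 1 TPM. HSPBP1, an exchange factor that limits HSP70 activity, gave 40.76, 40.03 and 37.28 TPM without CDCA and 26.49, 27.90 and 25.74 TPM with it. It moved the other way from BAG3 and HSPH1, with a log2 fold change of -0.54 (SE 0.05, FDR 0.0003).

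HSPB11 shares a name with the small heat shock proteins but is the intraflagellar transport protein IFT25. It had levels of 5.64, 6.99 and 6.44 TPM in untreated libraries, compared with 18.23, 18.32 and 25.54 TPM in treated ones. It was called higher, with a log2 fold change of 1.55 (SE 0.14, FDR 0.0002) and a ratio of means of 3.26. This call, among the 6, is not of a chaperone.

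The mitochondrial chaperones did not move together. HSPE1 (HSP10), the lid of the mitochondrial chaperonin, measured 520.96, 482.03 and 466.40 TPM in the CON libraries against 537.37, 544.01 and 529.22 TPM under CDCA. The groups did not overlap but lay close, and the log2 fold change of 0.13 (interval 0.02 to 0.25) had an FDR just over 0.05 and did not pass, though without CON library 1 it was 0.18 and passed (FDR 0.011). With totals that leave out the mitochondrially encoded mRNAs its log2 fold change was -0.02. HSPD1 (HSP60), which forms the chamber that HSPE1 closes, was listed at only 2.25 ± 0.208 TPM in CON and 1.68 ± 0.620 TPM in CDCA (SD, n = 3), far below its partner, with a log2 fold change of -0.30 (FDR 0.19). Without CDCA library 1 HSPD1 fell, with -0.48 (FDR 0.032).

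Of 7 mitochondrial members, all tested, 1 rose (HSPA9) and 2 fell (DNAJA3 and DNAJC11), or 14.3% and 28.6% against 29.3% and 23.9% of all tested genes. DNAJC15 and DNAJC19, of the inner membrane, had log2 fold changes of 0.11 and 0.36 that did not pass. DNAJC15 passed without CON library 1, at 0.20 (FDR 0.044), and DNAJC19 without CON library 3, at 0.49 (FDR 0.044). Of 13 further mitochondrial co-chaperones and proteases 10 were tested, 1 rose and 3 fell, or 10% and 30% beside the same background, with a median log2 fold change of -0.20 against 0.05 over all tested genes. HSCB, which delivers iron-sulfur clusters with HSPA9, rose by 0.32 on the log2 scale. LONP1, the protease of the matrix, fell with a log2 fold change of -0.71 (50.2 ± 1.36 to 30.4 ± 1.36 TPM), GRPEL2, an exchange factor of HSPA9, with -0.69, and CLPB, a disaggregase, with -0.34.

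Of 9 TRiC members 5 were tested, 1 rose, 1 fell and 3 did not pass, or 20% each way against 29.3% and 23.9% of all tested genes. The summed TPM was 834.12, 810.10 and 757.66 in CON and 793.08, 828.19 and 798.61 in CDCA, a ratio of 1.01. TCP1 gave 176.23, 165.39 and 159.14 TPM without CDCA and 144.47, 148.81 and 148.21 TPM with it. It fell with a log2 fold change of -0.18 (SE 0.05, FDR 0.015), a result lost without CDCA library 1, and was at -0.33 with totals that leave out the mitochondrially encoded mRNAs. CCT4 rose by 0.17 on the log2 scale (FDR 0.042), which was lost in 5 of 6 fits that left out a library, and with totals that leave out the mitochondrially encoded mRNAs it was at 0.02.

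CCT3, the most abundant subunit, had 423 ± 12.8 TPM in CON and 444 ± 12.4 TPM in CDCA (SD, n = 3), with a log2 fold change of 0.07 (interval -0.02 to 0.16). CCT7 had 136 ± 8.87 and 135 ± 3.65 TPM, and its log2 fold change of -0.01 had an interval of -0.14 to 0.12. With totals that leave out the mitochondrially encoded mRNAs CCT3 was at -0.08 and CCT7 fell, by 0.16 on the log2 scale. CCT8 did not pass (log2 fold change -0.08), but it was lower in CON library 3 than in the other CON libraries, and without that library it fell, with a log2 fold change of -0.35 (FDR 0.0099). CCT2 and CCT5, subunits of the same ring, were under 1 TPM and were not tested. Of 9 prefoldin subunits and other helpers of TRiC 8 were tested, 2 rose (PFDN2 by 0.64 and PFDN4 by 0.33 on the log2 scale) and 1 fell (PDCL, with -0.23, a result not kept in every fit that left out a library), or 25.0% and 12.5% against 29.3% and 23.9% of all tested genes, and the median was 0.01.

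The summed TPM of all 75 members was 5980.45, 6664.20 and 6255.84 in CON and 9078.40, 10178.88 and 8420.29 in CDCA, or 1.63% to 1.83% and 2.37% to 2.80% of the listed TPM. HSPB1 made up 78.1% of the difference between the group means, and its part of the sum was 57.9% in CON and 64.3% in CDCA. Without HSPB1 the sums were 2756.07, 2671.39 and 2532.41 TPM in CON and 3305.44, 3443.53 and 3128.98 TPM in CDCA, so the ratio of means was 1.24 in place of 1.46. By family the ratios were 1.86 for DNAJB, or 1.25 without DNAJB1, 1.68 for HSP70 and HSP110, 1.62 for small heat shock proteins, 1.5 for BAG and for HSP90, whose sums were at most 5.17 TPM, 1.39 for the HSF genes, 1.09 for HSP60 and HSP10, nearly all of it HSPE1, 1.06 for DNAJA, 1.01 for TRiC and 1.00 for DNAJC. These sums are of TPM as listed. With totals that leave out the mitochondrially encoded mRNAs, the median log2 fold change was -0.16 for TRiC and -0.03 for DNAJC.

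**Figure D3:**
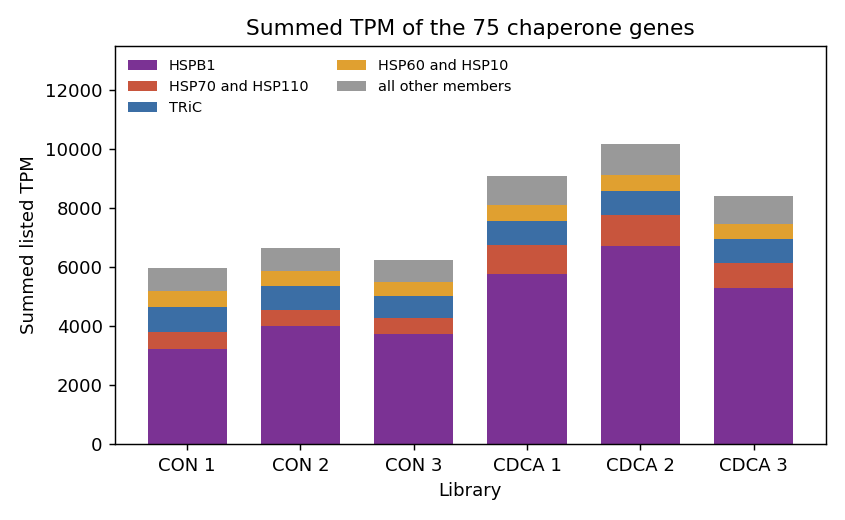
Summed listed TPM of the 75 chaperone genes in each library, stacked by HSPB1, the HSP70 and HSP110 families, TRiC, HSP60 with HSP10, and all other members. The bars of CDCA lie between 8420 and 10179 TPM and those of CON between 5980 and 6664 TPM, and the segment of HSPB1 is the largest in every library while that of TRiC keeps its height.

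**Figure D4:**
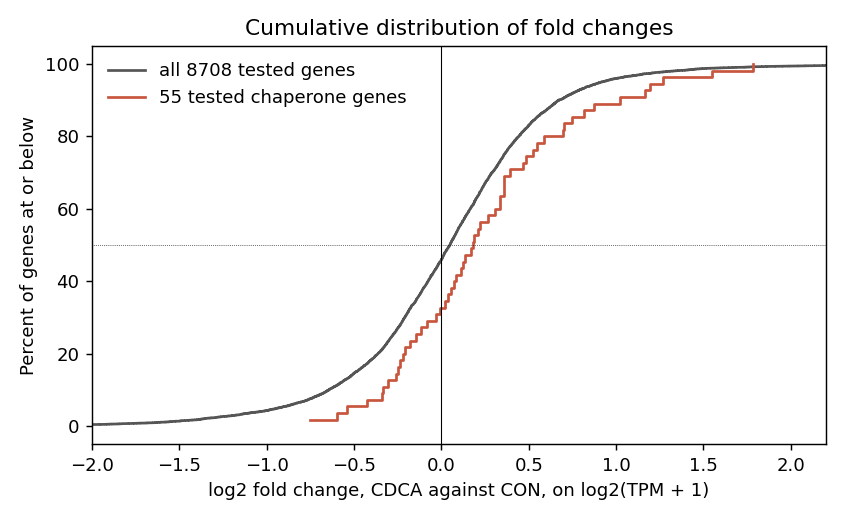
Cumulative percent of genes at or below each log2 fold change (CDCA against CON on log2(TPM + 1)) for the 55 tested chaperone genes (red) and all 8708 tested genes (grey). The red curve crosses the dotted line at 50% at 0.18 and the grey one at 0.05, and no chaperone gene lies below -0.75.

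A list of 21 heat-inducible genes that HSF1 is known to switch on held 18 tested genes, members and others. Their median log2 fold change was 0.32, and 10 rose, 4 of them called, while 1 fell. Of all tested genes 29.3% rose, 3.51% were called higher and 23.9% fell. Among the 10, DNAJA1 did not pass with totals that leave out the mitochondrially encoded mRNAs, at 0.12. HSPA1A, HSPA1B and HSPA4L of the list were not counted. A gene ID that may be HSPA4L, of uncertain identity, fell with a log2 fold change of -0.49. The list was written with earlier results of these data known, so its count is not independent evidence of a direction. The called genes were HSPH1, BAG3, DNAJB1 and CRYAB. CRYAB (alpha B-crystallin, a small heat shock protein whose name falls outside the choice of members) had levels of 351.63, 363.15 and 341.39 TPM in untreated libraries, compared with 2043.36, 2589.80 and 1746.37 TPM in treated ones. Its log2 fold change of 2.57 (SE 0.13, FDR 1.95e-05) was above that of every tested member, and it was singled out after its values were seen.

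Other rises in this list were smaller: SERPINH1, the collagen chaperone of the ER, at 0.93 and STIP1, the adaptor between HSP70 and HSP90, at 0.38 on the log2 scale. FKBP4 fell, at -0.24. AHSA1, CHORDC1 and CACYBP, which assist HSP90, had log2 fold changes of 0.03, 0.19 and 0.21 and did not pass.

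A list of 18 genes outside the member names held co-chaperones of HSP70 and HSP90, and HSBP1, which encodes a heat shock factor binding protein. Of the 18 genes 17 were tested, 5 rose, HSBP1 among them, and 7 fell, with a median log2 fold change of 0.03. The shares were 29.4% and 41.2%, against 29.3% and 23.9% of all tested genes. ST13 (HIP), which steadies HSP70 in its client-bound state, measured 69.17, 73.41 and 71.57 TPM in the CON libraries against 112.01, 119.41 and 118.79 TPM under CDCA, a log2 fold change of 0.70 (SE 0.04, FDR 3.83e-05). UNC45A, a myosin chaperone, rose by 0.48 on the log2 scale. TTC4, FKBP5 and PPP5C, partners of HSP90 that carry TPR repeats, fell with log2 fold changes of -0.65, -0.64 and -0.58, and STUB1 (CHIP), the ubiquitin ligase of HSP70 clients, with -0.32.

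Within CDCA, many of the members that rose were highest in library 2 and lowest in library 3. This order held in 9 of the 23 that rose, or 39.1%: HSF1, HSF2, HSPA8, HSPH1, HSPB1, HSPB8, DNAJB1, DNAJB6 and BAG3. Among all tested genes that rose it held in 445 of 2550, or 17.5%, and among all tested genes called higher in 72 of 306, or 23.5%. The same order held in 17 of the 55 tested members, or 30.9%, and in 1 of the 10 that fell. Relative to its CON mean, HSPH1 stood at 4.18, 5.24 and 2.40 in CDCA libraries 1, 2 and 3, DNAJB1 at 2.23, 2.92 and 1.89, and BAG3 at 2.28, 2.61 and 2.04. HSPA9 stood at 1.82, 1.86 and 1.83 and so did not follow them. Genes share their libraries, so this order is a description and was not tested.

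**Figure D5:**
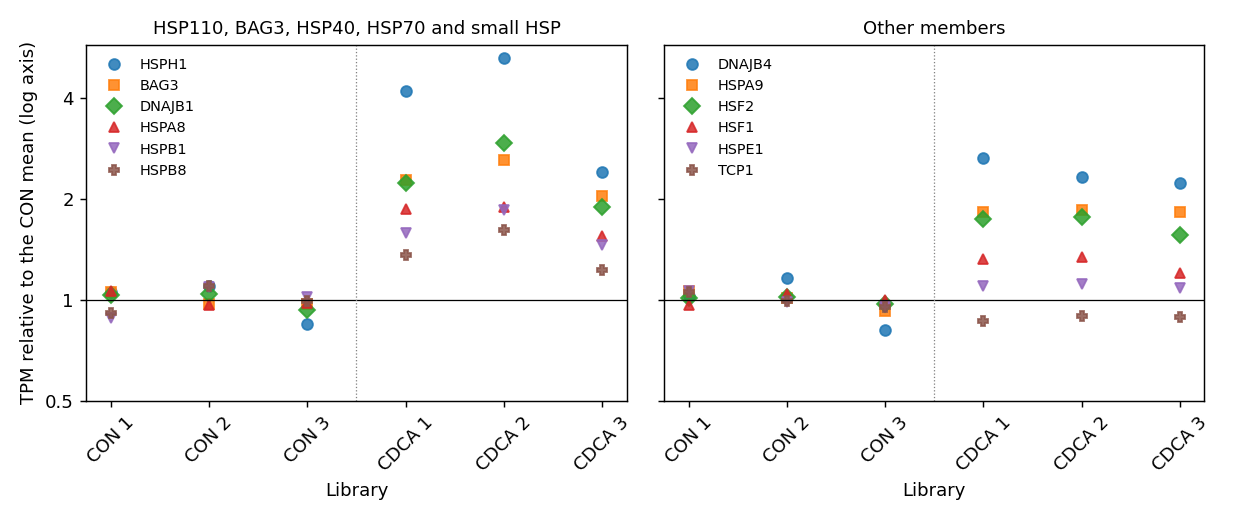
TPM of 12 members in each library relative to the gene's CON mean (log axis), with the CON mean at 1. Left, HSPH1, BAG3, DNAJB1, HSPA8, HSPB1 and HSPB8 are highest in CDCA library 2 and lowest in library 3; right, HSPA9 lies between 1.82 and 1.86 in CDCA, HSPE1 near 1.1 and TCP1 near 0.9.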

How the data were processed

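The authors sequenced libraries from total RNA (TruSeq) on an Illumina instrument, quantified them with RSEM and deposited TPM values of listed transcripts. Aligner and annotation release are not given in the methods. The submitters' processing notes name Bowtie 0.12.2 and mm10, a mouse build, without a role, although the gene IDs are Ensembl pig IDs, so no coordinates or sequences are given. Transcripts were summed per gene ID. Genes whose mean reached 1 TPM were tested with limma 3.58.1 (lmFit, eBayes with trend) in R 4.3.3 on log2(TPM + 1), CDCA against CON, with Benjamini-Hochberg adjustment; the steps were tested on simulated data. The authors' edgeR needs counts and was not used. All p-values in the text are from limma.

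Members and lists were chosen with earlier results of these data known. The genes named were those called, the 5 largest log2 fold changes in each direction among members past the test, and a list of 36 core genes, of which 5 were not among the members and 3 were not tested. All other genes named were chosen after their values were seen or belong to the lists. Alternatives were another pseudocount (0.1 TPM), no filter, 3 scalings, the highest listed transcript, the replicate number as a block, and each library left out. Sequence features that were planned could not be examined.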

Additional observations from a re-analysis of the deposited data

How the results depend on the processing

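The files hold no counts, and groups of 3 libraries leave small changes undecided. Over these alternatives 4 to 7 members were called higher and 0 lower, 19 to 25 rose and 8 to 13 fell at an FDR under 0.05. DNAJB4 lost its call with totals that leave out the mitochondrially encoded mRNAs, with median ratio scaling and without CON replicate 3, and without CDCA replicate 1, where HSPB6 was under 1 TPM and not tested, which left 4 calls. With the highest listed transcript HSPB6 was again not tested and DNAJC17 gained a call, and with a pseudocount of 0.1 TPM DNAJB2 gained one. The median log2 fold change of the members, 0.18, was 0.066 with totals that leave out the mitochondrially encoded mRNAs and 0.092 with no filter, when 71 members were tested. Members chosen also by gene description or by symbols of gene IDs, an alternative added after seeing the data, gave 26 rises and 12 falls. These counts include the gene IDs given as DNAJC4 and HSPA4L, whose identity is uncertain.

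The replicate numbers did not pair the libraries: the deviations of libraries with the same number had correlations of -0.035, -0.092 and -0.051 across genes. With the replicate block 6 members were called higher, 21 rose and 9 fell.

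Of 435 values of named genes under the alternatives, 385 kept their direction and side of the threshold. Directions turned for genes that did not pass. With totals that leave out the mitochondrially encoded mRNAs the log2 fold change was -0.056 for BAG6, -0.083 for CCT3, -0.050 for HSP90AB1 and -0.020 for HSPE1. It was -0.0031 for HSP90AB1 with median ratio scaling, -0.027 for BAG6 with the highest listed transcript and 0.016 for CCT7 with the same total in each library. With libraries left out it ranged from -0.058 to 0.034 for CCT7, from -0.35 to 0.088 for CCT8 and from -0.35 to 0.35 for HSP90AB1, which was tested in only 2 of these fits. The cause was not tested.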

Other observations

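Several chaperone genes had no usable name in the deposited table and were found by their description or by a table of gene IDs and symbols. DNAJA1, a cytosolic partner of HSP70, gave 79.55, 75.63 and 72.55 TPM without CDCA and 90.03, 97.78 and 87.17 TPM with it. DNAJA1 rose by 0.27 on the log2 scale (SE 0.06, limma FDR 0.0075), and with totals that leave out the mitochondrially encoded mRNAs it was at 0.12 and did not pass. The gene ID described as chaperonin containing TCP1 subunit 6A, a further subunit of TRiC, had levels of 137.88, 133.61 and 123.94 TPM in untreated libraries, compared with 99.38, 101.84 and 104.32 TPM in treated ones. Its difference was -0.37 on the log2 scale (SE 0.05, limma FDR 0.00096), a fall below that of each tested TRiC member. DNAJC25 rose by 0.37 on the log2 scale, or 0.24 with totals that leave out the mitochondrially encoded mRNAs. The table of symbols gave DNAJC4 and HSPA4L for IDs that the deposited table describes as vascular endothelial growth factor B and polo like kinase 4, so which gene was measured is uncertain. The first rose by 0.71 on the log2 scale (limma FDR 0.0006) and the second fell, with -0.49 (limma FDR 0.0033), though its highest transcript alone was at 0.20 and did not pass. The gene ID described as DnaJ member C21 was at 0.07 and did not pass, and the gene ID described as HSP70 member 2 was under 1 TPM on average.

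Of the 4 ER genes left out of the members HSPA5, DNAJB9 and DNAJC3 rose, where 29.3% of all tested genes did so. HSPA5 (BiP), the HSP70 of the ER, measured 0.66, 0.99 and 1.23 TPM in the CON libraries against 3.93, 3.88 and 3.48 TPM under CDCA, with a log2 fold change of 1.29 (limma FDR 0.0003), but it reached the filter of 1 TPM only through the CDCA libraries. DNAJB9, its J-domain partner, gave 7.18, 8.48 and 6.80 TPM without CDCA and 28.07, 24.65 and 26.99 TPM with it, with a log2 fold change of 1.70. HSP90B1, the HSP90 of the ER, rose by 0.50 on the log2 scale. DNAJC3 rose by 0.56, a result lost in 4 of 6 fits that left out a library and with totals that leave out the mitochondrially encoded mRNAs, while DNAJB11 was at 0.07 and did not pass (limma FDR 0.21).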
